A study of Drosophila melanogaster with 3 samples.

Results

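Of the 4412 unique last exons carried by the multi-exon transcript models of adult fly heads, 839 (19.0%) measured 1000 nt or more and belonged to a model of 3000 nt or less. These long last exons were chosen by their own measured length and by the length of their model, so both lengths are given as a description and were not tested. They lay in 932 of the 4763 multi-exon models of 3000 nt or less and used 826 different splice acceptors. The models at these acceptors named 811 genes, which are called genes with a long last exon below. With each named exon given to 1 gene, 780 genes contributed a single long last exon, 26 contributed 2 and 1 contributed 3. A further 165 last exons reached 1000 nt only in longer models and were left aside.

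The models came from 3 samples of untreated heads of w1118, a white-eyed laboratory strain of Drosophila melanogaster, taken from adults of 3 days raised at 25 °C. Whole cDNAs were read by FLAM-seq, a long-read method in which poly(A)-selected RNA is tailed, reverse transcribed through the poly(A) tail and sequenced on a PacBio instrument, and the reads of all samples were merged before the models were built. The deposited table therefore gives 1 pooled set of exon coordinates (5980 models, 852 of them of a single exon) with no value per sample and no read count, so no spread between flies can be given. A head contains brain, eyes, fat body and muscle, and which of these an mRNA came from cannot be told apart. Models of 19 genes from a phototransduction list were present.

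The last exon of an mRNA begins at a splice acceptor and ends where the transcript is cleaved and polyadenylated. It usually holds the stop codon and all of the 3′ untranslated region (3′ UTR), where microRNAs and RNA-binding proteins act. Cleavage takes place a short way downstream of a poly(A) signal (PAS), most often the hexamer AATAAA. Where a gene has several such sites in its last exon, alternative polyadenylation (APA) gives 3′ UTRs of different length behind the same protein.

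To show what the ends of these exons look like, the 30 bases of the dm6 genome that finish 5 of them are given 5′ to 3′ on the strand of the transcript, with the AATAAA nearest the end in capitals. The first 3 are among the longest exons of the set, Cpn (chr3R:12162888-12162917, minus strand), Hsc70-3 (chrX:11801697-11801726, minus strand) and Hsp83 (chr3L:3197016-3197045, plus strand). The other 2, Thor (chr2L:3480882-3480911, plus strand) and U2af50 (chrX:16355574-16355603, minus strand), ended far beyond the annotated gene and were picked after their values were seen. All 5 stretches are transcribed 3′ UTR.
Cpn: tAATAAAgcgttatttcaccaattttaaag
Hsc70-3: aaaataaAATAAAaaaaaaattgaaaaaat
Hsp83: acataaaaccaAATAAAcaacaagcaaatg
Thor: atttacAATAAAatatacatattttcatag
U2af50: ttaagctttaaaagagaaAATAAAaaaggt

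The next sequences are the 3′ ends that followed a single splice acceptor in Rab5, a small GTPase of early endosomes, and in Vha55, a subunit of the proton pump that fills synaptic vesicles. They are ordered from the end nearest the acceptor to the farthest, and capitals mark the highest-ranked of 12 PAS hexamers in the 30 bases, while others may be present in lower case. The Rab5 ends lay at chr2L:2360328-2360357, chr2L:2360011-2360040, chr2L:2359315-2359344 and chr2L:2359143-2359172, and the Vha55 ends at chr3R:12624602-12624631, chr3R:12623989-12624018 and chr3R:12623763-12623792, all on the minus strand.
Rab5 end 1: tgctgataattataAATAAAaaaattattt
Rab5 end 2: catttcaaataacaacgcaaattaataatg
Rab5 end 3: AATAAAacaaatcgaacaacacaataccgt
Rab5 end 4: atatatatatatgactgcgtatatacatat
Vha55 end 1: accacaATTAAAccacaaaatatctaatct
Vha55 end 2: taaattaatgaatattaCATAAAgttgcat
Vha55 end 3: tgAATAAActacacaccaaatcatgttaaa

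Exons became fewer from the threshold upwards. The median long last exon measured 1285 nt (upper quartile 1553 nt, longest 2786 nt), 309 of 839 were shorter than 1200 nt, 242 reached 1500 nt and 53 reached 2000 nt. The threshold cut a continuous distribution: 89 last exons fell short of it by at most 50 nt and 84 exceeded it by less than 50 nt. Just inside it lay CG6293 (1000 nt), the non-coding gene CR15345 (1001 nt), eIF4A (1002 nt), the RNA helicase that opens mRNA for ribosome scanning, RabX6 (1003 nt) and the scavenger receptor gene emp (1004 nt). Just outside lay Sam-S (999 nt), which encodes the synthase of S-adenosylmethionine, wrm1 (998 nt), Mgat1 (997 nt), Mcad (996 nt) and mah (996 nt).

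**Figure D1:**
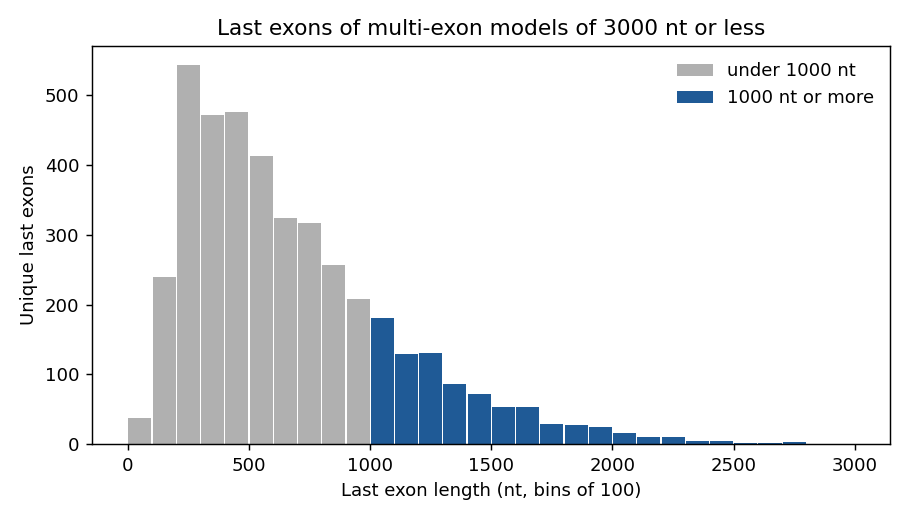
Number of unique last exons (vertical axis) by length in nt (horizontal axis, bins of 100 nt) for multi-exon models of 3000 nt or less, grey for exons under 1000 nt and blue for the 839 long ones. The counts fall across the threshold without a gap, and 53 exons lie at 2000 nt or beyond.

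The 10 longest exons came from genes of very different function. The longest, 2786 nt, belonged to Cpn, which encodes calphotin, a calcium-binding protein of photoreceptors (chr3R:12162888-12165673). It was followed by Hsc70-3 (2762 nt, chrX:11801697-11804458), the chaperone of the endoplasmic reticulum, and by Acp36DE (2706 nt, chr2L:18356048-18358753), a seminal fluid protein made in the male accessory gland. Hsp83, the fly Hsp90 chaperone, had 2547 nt and Rap1, a Ras-like GTPase, had 2629 nt. CG8064 (2665 nt), CG11771 (2576 nt), CG32452 (2488 nt) and CG1344 (2438 nt) carry no descriptive name, and chif (2464 nt) encodes a regulatory partner of the replication kinase Cdc7. Of these 10, Hsc70-3 alone came from a model of 3 exons and the others from models of 2.

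A last exon can reach 1000 nt by coding sequence, by 3′ UTR or by both. Coding bases were read from the annotated transcript of the same gene with the most coding bases in the exon, which was possible for 822 exons. Together these held 1137183 nt, 59.9% of it coding, 37.3% behind a stop codon, 1.103% ahead of a start codon and 1.69% between coding blocks. At least 50% of the exon was coding in 537 of 822 (65.3%, 95% Wilson interval 62.0 to 68.5), and 262 (31.9%) were 3′ UTR for at least 50% of their length. By comparison, at least 50% was coding in 1889 of the 3242 shorter last exons for which coding bases could be read (58.3%). The stop codon lay in the exon in 798 of 822 (97.1%). Among those, the 3′ UTR part had a median of 376 nt and a maximum of 2227 nt, against a median of 156 nt in the shorter last exons.

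Coding sequence alone reached 1000 nt in 309 exons and 3′ UTR alone in 125, while 389 passed the threshold only by the sum of their parts. A single exon, of the unnamed gene CG42354 on the X chromosome, exceeded 1000 nt in both (1291 nt coding and 1043 nt of 3′ UTR). The most coding bases were found in CG8064 (2611 nt), Cpn (2595 nt), Acp36DE (2529 nt), chif (2445 nt) and Hsp83 (2154 nt). Their 3′ UTRs were short, 54 nt in CG8064, 68 nt in Cpn, 177 nt in Acp36DE and 393 nt in Hsp83, and the chif exon ended before the annotated stop codon.

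The longest 3′ UTR parts belonged to other genes. Vha16-1, the membrane-ring subunit of the vacuolar proton pump, had 2227 nt of 3′ UTR behind 205 nt of coding sequence. Vha26, a subunit of the same pump, had 2002 nt behind 108 nt. 14-3-3zeta, a phosphoserine-binding adaptor, had 2065 nt, CG34155 had 2062 nt and the tetraspanin gene Tsp26A had 2001 nt. The exons of cpx, which encodes the synaptic fusion clamp complexin, and of Hrb98DE, a nuclear RNA-binding protein, were 3′ UTR from first to last base (1752 nt and 1035 nt). In all, 10 of the 822 exons held no coding base, but not all of these were 3′ UTR. Those of CG40498 (1306 nt) and CG18749 (1781 nt) lay wholly ahead of the annotated start codon.

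**Figure D2:**
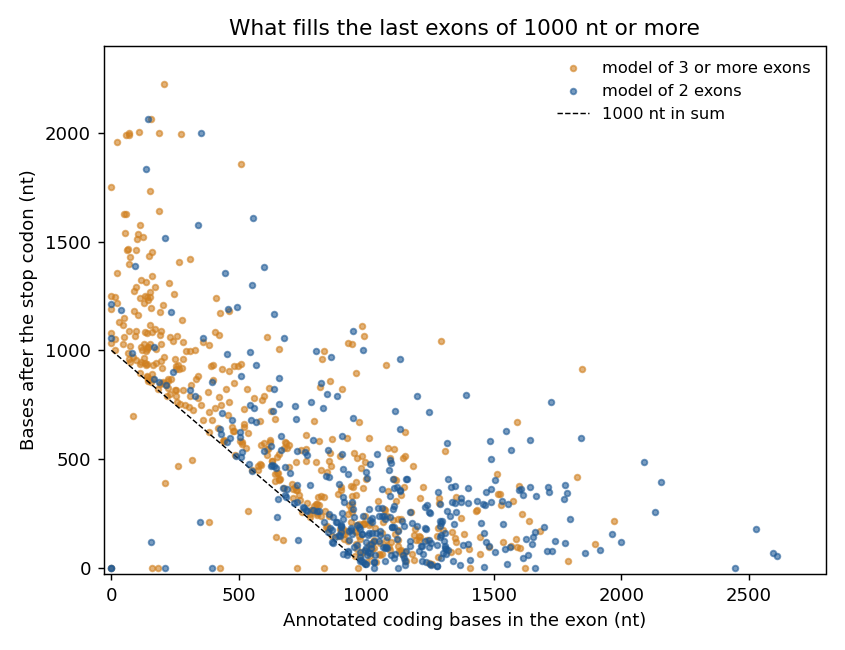
Each point is 1 of the 822 long last exons with coding annotation, with its coding bases on the horizontal axis and its bases after the stop codon on the vertical axis (both in nt), blue for models of 2 exons and orange for models of 3 or more. Blue points gather to the right, where 309 exons hold 1000 nt or more of coding sequence, and orange points fill the upper left. Points below the dashed line at 1000 nt in sum also hold bases ahead of the start codon or between coding blocks.

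The 2 kinds of exon differed in base composition. The median GC content was 50.03% in exons that were at least 50% coding and 39.7% in those that were at least 50% 3′ UTR. Sequence motifs followed the same division. AATAAA on the transcript strand, with the last 50 nt left out, occurred 1.58 times per kb in the 3′ UTR parts of long last exons (550 in 348757 nt) and 0.0963 times per kb in their coding parts (59 in 612941 nt). In the shorter last exons the 3′ UTR rate was 1.42 per kb. The pentamer ATTTA, the core of AU-rich instability elements, occurred 4.24 times per kb of 3′ UTR in long and 4.33 in shorter last exons. The Pumilio recognition motif TGTANATA, in which N is any base, occurred 0.347 times per kb of 3′ UTR in long last exons and 0.4996 in shorter ones. These rates were not tested, and a match says nothing of binding.

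In 91 of the 822 exons (11.1%) the whole coding sequence of the annotated transcript used lay in the last exon. The share was 3.39% in the shorter last exons (110 of 3242). Whether every other exon of these models was 5′ UTR was not checked. Some models differed from that transcript: the exons of Jupiter and CG17549 held 276 and 501 nt of its introns. The 91 exons held a median of 1080 coding nt, and all remaining exons of their models had a median of only 151 nt. Cpn, Hsp83, Rap1 and ND-20, a subunit of respiratory complex I, were of this form, as were Act5C, a cytoplasmic actin, the MAP kinase gene p38b, and Idh, which encodes an isocitrate dehydrogenase. Rap1 carried 465 nt of 5′ UTR, 555 nt of coding sequence and 1609 nt of 3′ UTR in its single long exon. The smallest reading frame of this kind, 144 nt in CG34155, was followed by 2062 nt.

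The models' other exons were few and short. The model had 2 exons for 366 of the 839 long last exons (43.6%), 3 exons for 188, 4 exons for 119 and 5 or more for 166. Shorter last exons came from models of 2 exons in 26.9% of cases (884 of 3284) and of 5 or more in 30.8%. All other exons together measured a median of 537 nt beside a long last exon and 777 nt beside a shorter one, and they exceeded the last exon in 96 of 839 models. The long exon made up a median of 72.3% of its model, from 35.3% to 99.4%. These shares follow in part from the limit on model length and are given without a test. The highest shares were those of ND-20 (99.4%, whose other exon measured 8 nt), CG2604 (98.9%), CG17612 (98.8%), anox (98.3%), which encodes an acyl-CoA-binding protein, and Cpn (97.7%).

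The number of exons went with what filled the last one. In models of 2 exons 294 of 358 long last exons (82.1%) were at least 50% coding, in models of 3 or more 243 of 464 (52.4%), and in models of 5 or more 35 of 163 (21.5%). In this last group the median last exon held 252 coding nt and 913 nt of 3′ UTR. The 4 models with the most exons ended in exons rich in 3′ UTR. Gdap2 (13 exons) had 69 nt coding and 958 nt of 3′ UTR, and Eip63E, a cyclin-dependent kinase gene (12 exons), had 113 nt and 935 nt. Cbp53E, a calcium-binding protein of neurons (11 exons), had 147 nt and 1434 nt, and the kinase gene Doa (11 exons) had 128 nt and 1030 nt.

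Next, 7 properties were compared with last exons under 1000 nt. The comparison set was 3157 acceptors at which no model had a last exon of 1000 nt, with a model of 3000 nt or less, and 2970 genes with such acceptors only. The shares were compared by two-tailed Fisher's exact tests, with p-values adjusted over the 7 by the Benjamini-Hochberg method. An acceptor entered the set through its farthest end. The number of ends and the distance of that end from the annotation were therefore bound up with the rule. A gene entered through any of its models, so its number of transcription start sites was bound up with the rule too. All of these are described with no p-value. Exons and genes of 1 assembly are not independent replicates, so these p-values describe this set of models only.

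Several distinct 3′ ends, separated by more than 150 nt, followed 47 of the 826 acceptors of long last exons (5.69%, 95% interval 4.31 to 7.49) and 49 of the 3157 comparison acceptors (1.55%, 1.18 to 2.05). At 37 of the 47 the shorter form was itself under 1000 nt, so these acceptors entered only through a farther end. When each acceptor was instead put in a class by the exon that its nearest end gave, a choice made after the data were seen, the order turned. Several ends were then found at 10 of 789 acceptors of long last exons (1.27%) and 86 of 3194 of shorter ones (2.69%). Neither choice of class is independent of the number of ends, so neither share settles which class has more. Of the 47 acceptors, 42 had 2 ends, 3 had 3 ends and 2 had 4 ends. Comparison acceptors with a last exon of at least 500 nt had several ends in 2.88% of cases. Most acceptors had a single model (86.9% of those of long and 87.5% of those of shorter last exons), and a single model cannot show a second end. Among acceptors with 2 or more models, several ends were found at 47 of 108 and at 49 of 396 (43.5% and 12.4%), a restriction chosen after the data were seen. Several ends were found at the acceptor of 48 of the 262 long exons that were at least 50% 3′ UTR (18.3%) and of 9 of the 537 that were at least 50% coding (1.68%). These counts are of exons, so an acceptor with more than 1 long last exon is counted more than once. A farther end also lengthens the 3′ UTR part, so this division too is bound up with the number of ends and was not tested.

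The ends of 14-3-3zeta were the most widely spread. Its last exon measured 229, 853, 1008 or 2221 nt, a distance of 1992 nt between the outermost ends, and the 1008-nt form was used by 4 models and each of the others by 2. The first of these ends had 8 A among the next 10 genomic bases and lacked AATAAA, while the ends at 1008 and 2221 nt both had it. Rab5 ended at 66, 383, 1079 or 1251 nt from its acceptor. AATAAA preceded the ends at 66 and 1079 nt, CATAAA that at 383 nt (outside the bases shown), and none of the 12 searched hexamers the last. The first and second ends of Rab5 each had 7 A in the next 10 genomic bases.

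There were 3 ends each in Mal-B2, an alpha-glucosidase gene (194, 504 and 1053 nt), in CG7220 (420, 1014 and 1261 nt) and in Vha55 (303, 916 and 1142 nt). Zip102B, a zinc transporter gene on chromosome 4, ended at 612 or 2368 nt and Eip63F-1, which encodes a calcium-binding protein, at 774 or 1983 nt. chic, the fly profilin, ended at 471 nt in 3 models and at 1559 nt in 2. Outside the 10 most spread acceptors, Act5C ended at 1775 or 2099 nt, and neither end had AATAAA.

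**Figure D3:**
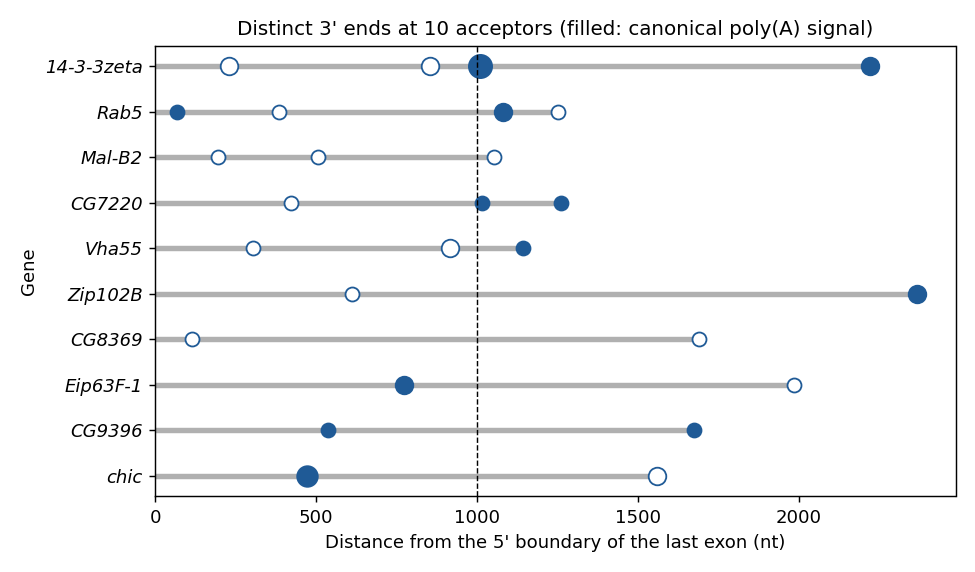
Distinct 3′ ends at the 10 acceptors with the most ends and the widest spread, one row per gene, with the distance from the 5′ boundary of the last exon in nt on the horizontal axis. Circles are ends, larger for more models and filled where AATAAA lies in the last 50 nt, grey bars are the longest form and the dashed line is at 1000 nt. The first and last ends of 14-3-3zeta lie 1992 nt apart.

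The outermost ends lay a median of 553 nt apart (167 to 1992 nt). AATAAA preceded 20 of the 47 nearest ends (42.6%, 95% interval 29.5 to 56.7) and 26 of the 47 farthest (55.3%, 41.3 to 68.6). Both kinds of end come from the same acceptors, so these separate intervals do not compare them, and the paired difference was not tested. A run of 7 or more A in the next 10 genomic bases was found at 10 nearest and 5 farthest ends. Examples of A-rich sequence, from this group and from an acceptor with a single end, are shown as 20 bases up to the end of the model followed, in capitals, by the next 10 bases of the genome. The CkIalpha end (chrX:12657256-12657285, plus strand), of a casein kinase, is the shorter of 2 forms. The chif exon, with a single end (chr2L:16346999-16347028, minus strand) is the coding exon described above, and both were picked for display after their values were seen.
CkIalpha: caacaagcaaacaacaacacAAAAAAACAA
chif: gtcccacgaaaaataaagttAAACAAACGA

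Such A-rich sequence, with 7 or more A in the next 10 bases, followed the farthest end at 87 of 826 acceptors of long last exons (10.5%) and 297 of 3157 comparison acceptors (9.41%). The difference did not pass the test (odds ratio 1.13, interval 0.870 to 1.47 in Fisher's exact test, adjusted p = 0.321). Without the models concerned, a restriction also chosen after the data were seen, several 3′ ends followed 4.74% of acceptors of long and 1.29% of acceptors of shorter last exons.

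The canonical PAS was more frequent in long last exons. AATAAA lay in the last 50 nt before the farthest 3′ end at 497 of 826 acceptors (60.2%, 95% interval 56.8 to 63.5) and at 1638 of 3157 comparison acceptors (51.9%, 50.1 to 53.6), an odds ratio of 1.40 (interval 1.20 to 1.64 in Fisher's exact test, adjusted p = 3.79e-05). In windows of the same length 51 to 100 nt before the end, AATAAA occurred in 8.34% of long and 7.55% of shorter last exons. When only the last 20 nt were searched the shares were 19.49% and 17.23% and the difference no longer passed the test (Fisher's exact test, adjusted p = 0.161). Taken over single exons and over a ranked list of 12 hexamers, ATTAAA stood in for AATAAA in 86 of 839 long last exons (10.3%), AATATA in 53 and AATACA in 30, and 97 (11.6%) had none of them, against 14.46% of shorter last exons. Measured from its first base, AATAAA was placed at a median distance of 22 nt in both classes.

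**Figure D4:**
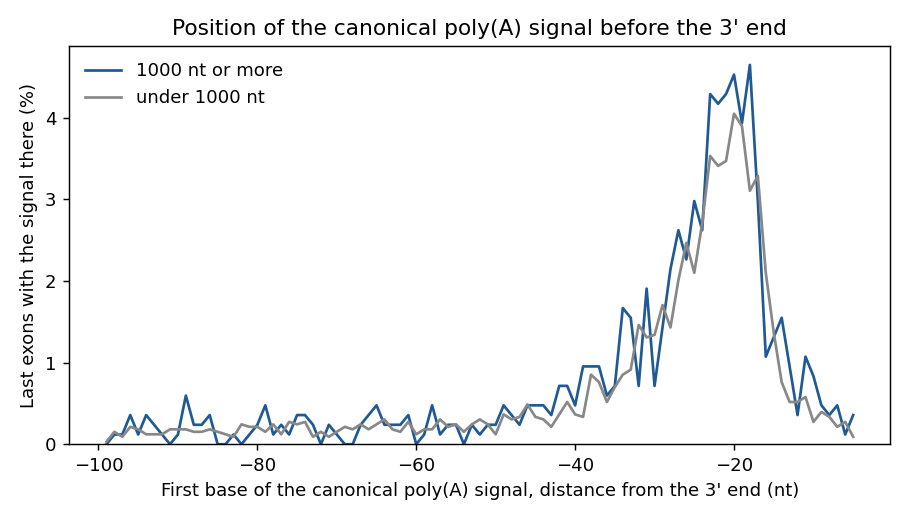
Share of last exons (vertical axis, percent) in which AATAAA starts at each distance before the 3′ end (horizontal axis, nt, the end being at 0), blue for the 839 long and grey for the 3284 shorter last exons. Both curves peak about the median distance of 22 nt, and the blue curve is higher over most of the peak.

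AATAAA was present both in exons filled with coding sequence (308 of 537, 57.4%) and in those filled with 3′ UTR (172 of 262, 65.6%). In the shorter last exons the same shares were 49.3% and 54.4%. Within the exon, before the last 50 nt, 383 of 839 long last exons (45.6%) held at least 1 further AATAAA, and 735 of 3284 shorter ones (22.4%). Per kb of exon the 2 classes were alike in value, 0.655 and 0.644.

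The farthest end lay within 150 nt of a 3′ end annotated by Ensembl for the same gene at 710 of 810 acceptors of long last exons (87.7%, 95% interval 85.2 to 89.7) and at 2888 of 3122 comparison acceptors (92.5%, 91.5 to 93.4). Most ends coincided with the annotation to within 1 nt, in 601 of 823 long (73.0%) and 2416 of 3247 shorter last exons (74.4%), on the plus strand mostly with no offset and on the minus strand mostly 1 nt short of the annotated end. Whether FLAIR took the ends of such models from the annotation rather than from the reads is not stated, so this agreement may not be a measurement, and the share with AATAAA rests largely on annotated ends. Restricted to ends more than 1 nt from every annotated one, a choice made after the data were seen, AATAAA was found at 91 of 216 (42.1%) and 219 of 780 (28.1%) acceptors (Fisher's exact test, adjusted p = 0.000176).

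Of the long last exons 66 of 823 (8.02%) ran more than 150 nt past the farthest annotated end of their gene, by a median of 356.5 nt and up to 1573 nt, against 88 of 3247 shorter ones (2.71%). AATAAA preceded 39 of these 66 ends (59.1%) and 7 or more A followed 9 of them. As these extensions are part of the exon's length they helped to bring it into the set, so the shares were not tested. The examples that follow were picked after their values were seen. Thor, which encodes the translation repressor 4E-BP, ended 1299 nt beyond the annotated gene, giving 1518 nt of 3′ UTR behind 209 nt of coding sequence (chr2L:3479185-3480911). U2af50, the large subunit of the splicing factor that recognises 3′ splice sites, ended 1122 nt beyond and Srp14, a subunit of the signal recognition particle, 1006 nt beyond. Obp57a, an odorant-binding protein gene, ended 1325 nt beyond, with TATAAA as the highest-ranked hexamer found.

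Some exons contained more than a simple 3′ end. An annotated intron of the same gene lay inside 71 of the 839 long last exons (8.46%) and 97 of the 3284 shorter ones (2.95%). Such an intron is part of the exon's length, and a longer exon has more room for one, so these 2 shares are bound up with the rule and were not tested. A coding exon of another gene on the same strand overlapped 19 of 823 (2.31%), for example SLIRP1 at anox and CG16790 at CG9396. A coding exon on the opposite strand overlapped 30 (3.65%). In the shorter last exons these shares were close, 56 of 3247 (1.73%) and 96 of 3247 (2.96%). FLAM-seq models overlapping another gene carry a single gene name, and which gene's product such an mRNA would encode was not tested. CLIP-190, a microtubule-binding protein and 1 of the genes with the most models (12), had a 1420-nt last exon with 426 nt of coding sequence and 994 nt that is intron in the annotated transcript. Its end lay 5904 nt before the farthest annotated end of the gene.

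The splice site before a long last exon belonged to an annotated last exon in 764 of 823 cases (92.8%), and that before a shorter one in 3122 of 3247 (96.2%). The intron was flanked by GT and AG in 839 of 848 unique last introns (98.9%). In 8 of the remaining 9 it began with GC and ended in AG. The ninth was in Xbp1, a transcription factor of the unfolded protein response whose mRNA is cut by the endonuclease Ire1 outside the spliceosome. It measured 23 nt (chr2R:21144506-21144528), the shortest last intron of the set, and was present in the annotation. A model without this 23-nt excision carried a last exon of 1550 nt, and the model with it a last exon of 1222 nt with 932 coding nt. Both ended at the same base, so both forms were represented among the models. The 1237 coding nt of the 1550-nt exon were read from an annotated transcript that removes the 23 nt. The reading frame of the form that keeps them was not examined.

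Last introns were longer before long last exons. The shortest intron at the acceptor measured 80 nt or less, the size of the compact introns typical of flies, at 467 of 826 acceptors of long last exons (56.5%, 95% interval 53.1 to 59.9) and at 2204 of 3157 comparison acceptors (69.8%, 68.2 to 71.4). This was an odds ratio of 0.562 (interval 0.479 to 0.660 in Fisher's exact test, adjusted p = 9.02e-12). Over exons the median last intron measured 71 and 65 nt, and the upper quartile 318.5 and 113 nt. Compact introns preceded 58.3% of the long exons that were at least 50% coding and 56.5% of those that were at least 50% 3′ UTR, but 28 of the 91 that held a whole coding sequence (30.8%). The longest last introns were in CG31176 (44598 nt) and in Snap25 (39044 nt), which encodes a SNARE protein of the synapse.

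At the other end of the transcript, 70 of the 811 genes with a long last exon (8.63%, 95% interval 6.89 to 10.8) had 2 or more transcription start sites (TSSs) separated by more than 50 nt, against 125 of 2970 comparison genes (4.21%, 3.54 to 4.99). A gene entered the set through any of its models, so genes with more models had more chances to enter, and no p-value is given. When both classes were restricted to models of 1500 to 3000 nt, the shares were closer, 10.3% and 8.05%. Genes with a long last exon had a single multi-exon model in 78.3% of cases and comparison genes in 84.6%. Among genes with 2 or more models the shares with 2 or more TSSs were 39.8% and 27.4%. Most models were found for CLIP-190 and CG17549 (12 each, from 2 TSSs each), followed by 14-3-3zeta (11, 2 TSSs), Jupiter, a microtubule-associated protein (11, 3 TSSs), and cpx (9, 3 TSSs). In 99 of the 811 genes a shorter last exon was found beside the long one.

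The X chromosome carried 128 of the 811 genes with a long last exon (15.8%, 95% interval 13.4 to 18.5) and 347 of the 2970 comparison genes (11.7%, 10.6 to 12.9), an odds ratio of 1.42 (interval 1.13 to 1.77 in Fisher's exact test, adjusted p = 0.00265). Counted over exons, 134 of the 532 last exons of the X chromosome were long (25.2%), 182 of 841 on arm 3L (21.6%), 227 of 1173 on 3R (19.4%), 136 of 846 on 2L (16.1%) and 154 of 979 on 2R (15.7%). On the small chromosome 4 there were 6 of 41, among them that of ATPsynbeta, the catalytic subunit of mitochondrial ATP synthase (1646 nt). Both kinds of exon were found on the X chromosome, which held 15.1% of those that were at least 50% coding and 16.0% of those that were at least 50% 3′ UTR.

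**Figure D5:**
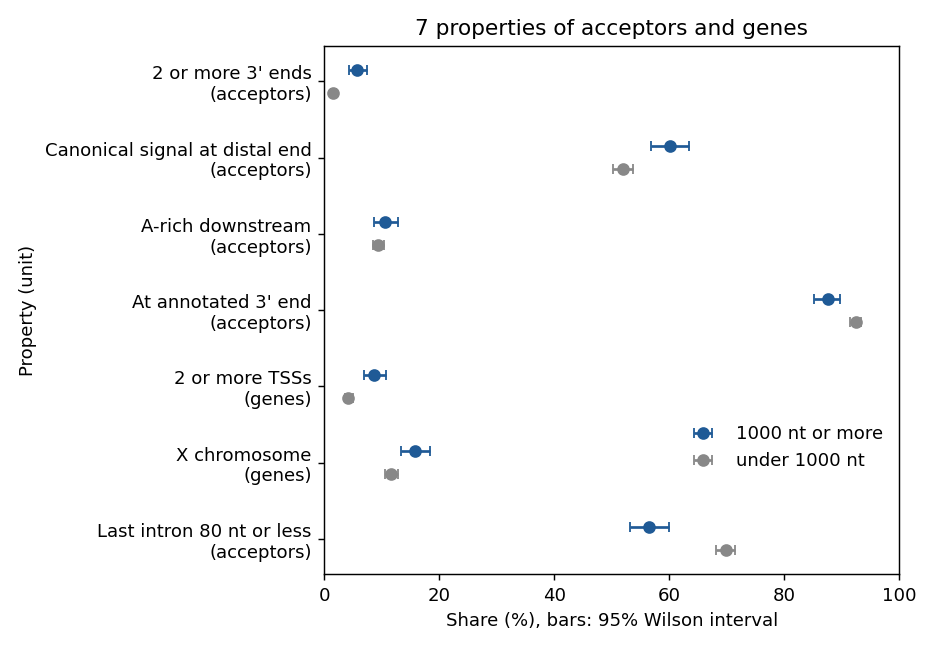
Shares in percent (horizontal axis) of acceptors or genes with each of the 7 compared properties, blue for long and grey for shorter last exons, with 95% Wilson intervals as bars. The intervals are apart for every property but A-rich sequence downstream (10.5% and 9.41%). The number of 3′ ends, the annotated 3′ end and the number of TSSs are bound up with the rule.

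By function, the long last exons were read against lists of genes for head and housekeeping processes. Of all 3791 genes with a multi-exon model of 3000 nt or less, 811 (21.4%) had a long last exon, and each list is given beside that share, with no test. Ubiquitin and protein turnover genes had one in 8 of 13 cases. ben (1711 nt), eff (1220 nt) and Ubc6 (1649 nt) encode ubiquitin-conjugating enzymes and Cbl (1384 nt) a ubiquitin ligase. Their coding sequence in the exon was 456 nt in ben, 140 nt in eff, 126 nt in Ubc6 and 138 nt in Cbl, and the rest was mostly 3′ UTR.

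Kinase and phosphatase genes had a long last exon in 10 of 18 cases, led by puc (1783 nt), the phosphatase that shuts off JNK signalling, p38b (1713 nt), CkIalpha (1501 nt) and hpo (1407 nt), the Hippo kinase. Small GTPases and their regulators had one in 8 of 21. Apart from Rap1, these were Rala (1641 nt), Rho1 (1370 nt) and Gdi (1369 nt), which extracts Rab proteins from membranes, followed by 3 Rab genes and Ran. Their 3′ UTR parts measured 1536 nt in Rala, 1178 nt in Rho1 and 907 nt in Gdi.

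Metabolic enzymes had a long last exon in 14 of 33 cases, and the leading ones held long reading frames. Gs1, a glutamine synthetase, had 1997 nt with 1200 coding, the glycolytic enzyme gene Eno 1887 nt with 1315 coding, Cat, the catalase, 1851 nt with 1464 coding, and Idh 1501 nt with 1251 coding. Cytoskeletal and adhesion genes had one in 11 of 33, among them Jupiter (2238 nt), Act5C (2099 nt), the muscle LIM protein gene Mlp84B (2066 nt) and alphaTub84B (1606 nt). Act5C held its whole coding sequence of 1131 nt in that exon, followed by 960 nt.

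In the synaptic list 3 of 8 genes had a long last exon, and all were almost wholly 3′ UTR, cpx with 0, Csp, a vesicle chaperone, with 23 and Snap25 with 63 coding nt. Transcription factors had one in 4 of 11. Jra (1276 nt), the fly Jun, held mostly coding sequence, emc (1221 nt), an inhibitor of bHLH proteins, 36 coding nt, and crc (1043 nt), the fly ATF4, 573 coding nt. Xbp1 (1550 nt) was mostly coding as read from the annotated transcript with the 23-nt excision. Chaperone genes had one in 3 of 7, Hsc70-2 (1804 nt), Hsc70-3 and Hsp83. RNA-binding proteins had one in 2 of 8, among them Hrb98DE.

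Shares below that of all genes were found in 6 lists. Ribosomal protein genes had a long last exon in 2 of 68 cases, RpL5 (1146 nt) and RpLP0 (1072 nt), and the longest last exon of a gene on this list had a median of 396 nt against 577 nt over all genes. RpL5 ended at 262 or 1146 nt, so that its long form added 884 nt to the 3′ UTR, and the RpLP0 exon held 900 coding nt. Oxidative phosphorylation genes had one in 6 of 42, namely ATPsynbeta, ND-20, ATPsyngamma, UQCR-14, ND-B16.6 and ATPsynC. Odorant-binding and cuticle protein genes had one in 2 of 19, Obp57a and its neighbour Obp57c (1251 nt). Both ran past the annotated gene. Obp57c ended 831 nt beyond it and overlapped a coding exon of Obp57b on the same strand. Obp57a ended 1325 nt beyond it, with 7 A in the next 10 genomic bases. Detoxification enzymes had one in 1 of 19, Cyp6w1 (1539 nt), as did phototransduction genes, santa-maria (1084 nt), a scavenger receptor for carotenoid uptake. None of the 7 ion channel and receptor genes with a model in this range had one.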

How the data were processed

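The authors merged the FLAM-seq reads of 3 head samples, mapped them to dm6 with STARlong and built models with FLAIR, correcting splice junctions with short reads and requiring promoter-supported 5′ ends and repeated full-length reads. The deposited values are exon start and end coordinates (genomic positions, no other unit). Depth per sample was not analysed here, so precision is stated only as 95% Wilson intervals on counts of exons, acceptors or genes. Leftmost coordinates of minus-strand 3′ ends were kept as deposited.

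Last exons were taken as unique combinations of chromosome, strand, start and end. Acceptors were last exons with the same 5′ boundary, and 3′ ends within 150 nt or TSSs within 50 nt were merged. Coding bases and 3′ ends came from Ensembl 115, sequence from the FlyBase release 6 genome in RefSeq, the same assembly as dm6: 12869 of 12981 introns were flanked by GT and AG. Of the 811 genes, 800 matched the annotation, and 11 identifiers did not and were not named. Fisher's exact tests were run in SciPy 1.17.1 (Python 3.11.15), intervals in statsmodels 0.14.6. Simulated data were used to check the choice of members, the number of 3′ ends, AATAAA and annotated ends. Merging of positions, coding bases, p-value adjustment and Fisher's exact test were checked on small known cases. The other steps, among them A-rich sequence, TSSs, the X chromosome and last introns, were not checked in this way.

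Genes named were those of the 10 longest exons, the 5 just inside and the 5 just outside the threshold, the 10 acceptors with most ends, the 5 extremes of coding length, 3′ UTR length, share of model and number of models, and up to 4 per gene list. Others were chosen after their values were seen, including those with the most exons or the longest last introns. The members and the 15 lists were chosen with earlier results of these data known. Of 697 listed symbols, 668 matched a gene by Ensembl name or RefSeq synonym. Some genes are not reported here.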

Additional observations from a re-analysis of the deposited data

How the results depend on the processing

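The set held 1047 exons at 900 nt or more, 659 at 1100 nt or more, 1004 without a limit on the model and 687 with models of 2500 nt or less. Of 46 alternatives to the 7 compared shares, 42 left the direction and the side of the threshold as they were. This count includes the number of 3′ ends, the annotated 3′ end and the number of TSSs. These are bound up with the rule, so for them the side of the threshold carries no weight. Over all results 7 alternatives were added after seeing the data. With acceptors put in a class by their nearest 3′ end, several ends became less frequent at long last exons, by -1.43 percentage points (1.27% against 2.69%). This choice puts an acceptor with a short nearest form into the shorter class together with its farther ends, so it too is bound up with the number of ends. AATAAA searched in the last 20 nt differed by 2.26 percentage points (Fisher's exact test, adjusted p = 0.161), where the window leaves out most signals, which lay a median of 22 nt from the end. Genes with 2 or more TSSs differed by 2.28 points among models of 1500 to 3000 nt, against 4.42 points in the main comparison, and the cause was not tested. A-rich sequence downstream passed the threshold when exons of 900 nt or more were taken, at 2.56 points (11.56% against 9.002%, Fisher's exact test, adjusted p = 0.0198). The share of mostly coding exons was 69.6% among those ending at an annotated end, against 65.3% of all. Merging TSSs within 20, 50 or 100 nt gave the same counts. Under the other alternatives the difference in several 3′ ends ranged from 2.25 to 31.1 points, that in AATAAA from 6.80 to 14.1 points and that in last introns from -17.0 to -11.5 points. No analysis paired by sample was possible because the deposited models are pooled over a single group, and for the same reason no sample could be left out. The number of reads behind a model is unknown, so a second end or a second TSS that was not modelled may have been missed.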
